A study of Mus musculus with 8 samples.

Results

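Pcsk1, Scg3, Pam and Slc30a8, genes that serve the maturation of insulin granules, were followed in MIN6-K8 cells, which come from a mouse insulinoma and secrete insulin. They were chosen by name, with earlier results of these data known, and all 4 are among the 3278 genes of the deposited table. The wild-type cells, labelled with the background strain IT6, were either untreated (Control, 4 libraries) or kept for 6 days in 40 µM selenomethionine (SeMet, 4 libraries), the selenium analogue of methionine. All libraries come from this 1 tumour-derived line, and the labels do not say that the replicates were separate cultures. The p-values therefore cover the spread between these libraries alone, which may be technical. The title of the series names insulin secretion under selenomethionine as its subject, and the comparison asks how the treatment moved these transcripts.

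Beta cells make insulin as proinsulin, which is packed into secretory granules and cut there into insulin and C-peptide. Pcsk1 encodes the prohormone convertase that opens proinsulin at a pair of basic residues, after which the carboxypeptidase encoded by Cpe trims the exposed basic residues. Scg3 encodes secretogranin III, a granin that binds chromogranin A and the cholesterol-rich granule membrane and helps cargo to enter the granule. Pam encodes a copper- and ascorbate-dependent enzyme that turns a C-terminal glycine into an amide, a step in the maturation of islet amyloid polypeptide. Slc30a8 encodes ZnT8, which carries zinc into the granule, where zinc holds insulin in hexamers and crystals. Variants of the human gene are associated with type 2 diabetes.

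The promoters are shown as a description, and common regulation of these genes was not tested. RefSeq sequences on GRCm38.p6, the assembly that mm10 names, were found for 3 of the 4 genes. Each runs from 250 bases before to 50 bases after the start that RefSeq annotates. That start is base 75089857 for Pcsk1, 31 bases downstream of the GENCODE start given below, and the same base as in GENCODE for Scg3 and for the Pam window shown. The Pcsk1 window is chr13:75089607-75089906 on the plus strand, the Scg3 window chr9:75684007-75684306 on the minus strand, and the Pam window, 1 of 2 overlapping ones, chr1:98095597-98095896 on the minus strand. Each is written 5′ to 3′ along its gene, and capitals mark CGTCA, the core of the cAMP response element, on either strand.
Pcsk1: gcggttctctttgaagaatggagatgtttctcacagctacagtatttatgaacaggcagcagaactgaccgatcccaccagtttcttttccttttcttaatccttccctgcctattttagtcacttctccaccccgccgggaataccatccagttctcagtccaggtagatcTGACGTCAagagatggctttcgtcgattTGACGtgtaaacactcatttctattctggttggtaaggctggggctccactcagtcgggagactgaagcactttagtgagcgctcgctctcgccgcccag
Scg3: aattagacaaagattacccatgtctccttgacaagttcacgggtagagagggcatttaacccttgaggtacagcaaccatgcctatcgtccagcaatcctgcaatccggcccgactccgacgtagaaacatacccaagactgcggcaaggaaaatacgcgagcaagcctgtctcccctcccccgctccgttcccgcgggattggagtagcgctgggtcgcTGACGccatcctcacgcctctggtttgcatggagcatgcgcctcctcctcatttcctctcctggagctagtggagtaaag
Pam: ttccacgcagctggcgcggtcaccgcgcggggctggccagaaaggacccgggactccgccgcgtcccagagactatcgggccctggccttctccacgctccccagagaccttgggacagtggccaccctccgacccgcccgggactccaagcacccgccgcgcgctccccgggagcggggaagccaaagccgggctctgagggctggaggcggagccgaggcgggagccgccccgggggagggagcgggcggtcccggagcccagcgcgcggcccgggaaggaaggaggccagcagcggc
The window of Pcsk1 held the full 8-letter element TGACGTCA from base -78 to base -71, counted from the RefSeq start, and a further core from -50 to -46. The full element, a palindrome that contains the core on both strands, occurred in 1.79% of 32817 mouse promoter windows of the same length. The core occurred in 20.8% of them, and once in the Scg3 window, from -30 to -26. The second core of Pcsk1 overlaps the core of the hypoxia response element, ACGTG, which occurred in 19.6% of windows and in neither of the other promoters shown. The homeodomain core TAAT occurred in 58.0% of windows, once in the Pcsk1 window and at 2 places in the Scg3 window. The E-box CACGTG, which contains the hypoxia core, occurred in 7.15% of windows, and the Maf element core TGCTGA in 19.5%, and both were in none of the 3. All motifs were searched on both strands, and the Pam window held none of them. The Pam window was 76.3% G or C, against 49.3% for Pcsk1, 55.7% for Scg3 and a median of 52.7% over all windows. These matches describe letters, and no binding was measured.

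All 4 transcripts fell under SeMet. Pcsk1 fell most, to 0.657 of its control mean, then Slc30a8 to 0.764, and Pam and Scg3 to 0.827 and 0.831. In each gene every SeMet library lay below every Control library. All 4 passed limma with Benjamini-Hochberg adjustment over the 3278 genes. They also passed a stricter adjustment over all 55450 annotated genes, in which every gene outside the table was given a p of 1. The table is named as one of differentially expressed genes and was selected by the authors, so passing carries little information: 100% of its genes passed (3277 of 3278), 53.0% as lower and 47.0% as higher. The groups did not overlap in 85.8% of the listed genes, of all of which 45.6% were lower without overlap. With the stricter adjustment 71.4% of the listed genes passed, 38.2% as lower. The share of these 4 genes that fell is therefore read only as a description, and their sizes and order are given below.

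The convertase gene Pcsk1 (ENSMUSG00000021587) lies on chromosome 13 from 75089826 to 75134861, plus strand. Normalised counts are read here, as an assumption, as gene counts that the authors divided by 1 factor per library. Those of Pcsk1 were 6379, 5748, 6681 and 6318 in the 4 Controls and 3854, 3850, 4355 and 4441 in the 4 SeMet libraries. Libraries are given in the order of their numbers here and below. SeMet libraries 1 and 2 were lower than 3 and 4, and even the highest SeMet library was 22.7% below the lowest Control. The means were 6281 ± 389 and 4125 ± 317 (SD, n = 4 per group, here and below), a 1.52-fold fall. The log2 fold change was -0.61 ± 0.05 (SE, here and below), with a 95% interval from -0.72 to -0.49 and a limma adjusted p of 3.2e-07. Of the 3278 genes, 477 had a larger absolute change than Pcsk1.

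The granule zinc transporter gene Slc30a8 (ENSMUSG00000022315) lies on chromosome 15 from 52295553 to 52335798, plus strand. Its normalised counts were 17220, 15807, 16117 and 16712 in the 4 Controls and 12528, 12451, 12761 and 12599 in the 4 SeMet libraries. The SeMet libraries lay within a narrow band, with a coefficient of variation of 1.05% against 3.82% in Controls, and the highest of them was 19.3% below the lowest Control. The fall was 1.31-fold, from 16464 ± 629 to 12585 ± 132. The log2 fold change was -0.39 ± 0.04 (95% interval -0.46 to -0.31, limma adjusted p = 3.4e-08).

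The amidating enzyme gene Pam (ENSMUSG00000026335) lies on chromosome 1 from 97795114 to 98095646, minus strand. Its normalised counts were 7501, 7160, 6931 and 6365 in the 4 Controls and 5753, 5843, 5728 and 5788 in the 4 SeMet libraries. The groups lay closest in this gene, with the highest SeMet library 8.21% below Control 4, the lowest Control. The Controls varied by 6.83% and the SeMet libraries by 0.861% of their means. Pam fell 1.21-fold, from 6989 ± 477 to 5778 ± 49.7, with a log2 fold change of -0.27 ± 0.04 (95% interval -0.36 to -0.18, limma adjusted p = 1.7e-05). Exons of B230216N24Rik, on the same strand, overlap 1.58% of the exon bases of Pam, and exons of no annotated gene overlap those of the other 3.

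The granin gene Scg3 (ENSMUSG00000032181) lies on chromosome 9 from 75643189 to 75684056, minus strand. Its normalised counts were 24265, 25356, 25890 and 25434 in the 4 Controls and 20476, 20160, 21582 and 21691 in the 4 SeMet libraries. As for Pcsk1, SeMet libraries 1 and 2 were the lower ones, and the groups did not overlap. The means were 25236 ± 689 and 20977 ± 773, a 1.20-fold fall. The log2 fold change was -0.27 ± 0.04 (95% interval -0.35 to -0.19, limma adjusted p = 6.8e-06).

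**Figure D1:**
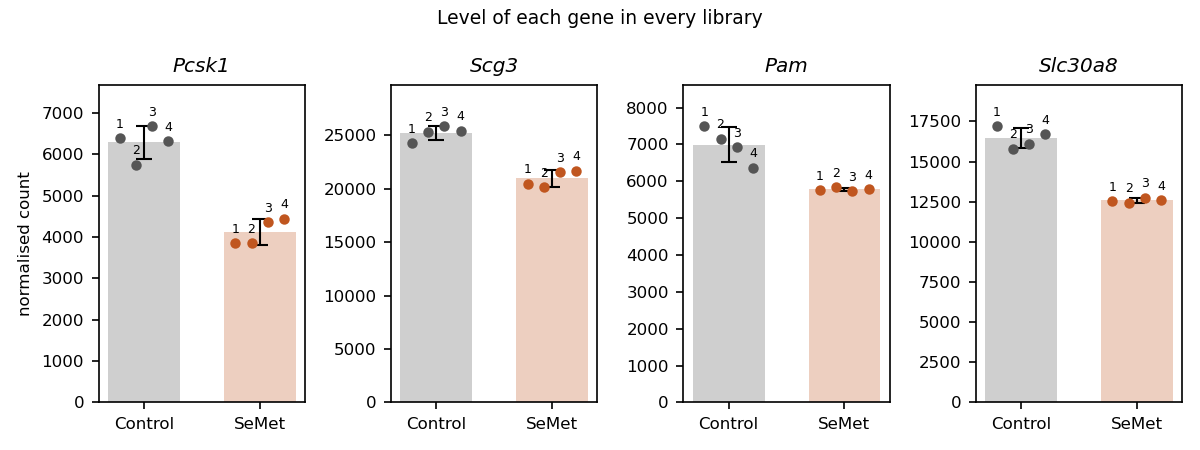
Normalised count of Pcsk1, Scg3, Pam and Slc30a8 in each library (numbered points), with bars at the mean of 4 libraries and error lines of 1 SD, on axes that start at 0. In each gene all SeMet points lie below all Control points, with the widest relative gap in Pcsk1 and the narrowest in Pam, whose Control 4 stood at 6365.

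The values are taken as counts not yet divided by length, which was not established, and the order of genes below rests on it. Counts of different genes can be compared only per length, here per kilobase of exon summed over all annotated transcripts. On that scale Scg3 and Slc30a8 were far more abundant than the enzymes. In Controls Scg3 stood at 9217 ± 252 normalised counts per kilobase and Slc30a8 at 8353 ± 319, and their libraries did not overlap (8862 to 9456 against 8020 to 8737). Pcsk1 stood at 1121 ± 69.5 and Pam at 588 ± 40.1. The order was the same under SeMet, with Scg3 at 7662 ± 282, Slc30a8 at 6385 ± 67.2, Pcsk1 at 736 ± 56.6 and Pam at 486 ± 4.18 normalised counts per kilobase. No neighbours in this order overlapped in either group. That does not test the lengths, since a gene is divided by the same length in all libraries. Scg3 and Slc30a8 lie close, and their order depends on 2738 exon bases from 7 transcripts against 1971 from 1. The values for Pam divide by 11892 exon bases from 15 transcripts, which may include exons that these cells do not use.

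By normalised count, which is not a level per length, all 4 genes were in the top 10% of the table. These 328 genes had a median log2 fold change of -0.10. Of them 53.0% were lower, with a median of -0.19 among the lower ones. Of these 328 genes, 17 had a more negative log2 fold change than Pcsk1, 28 than Slc30a8, 47 than Pam and 48 than Scg3. Over the whole table the median log2 fold change was -0.13 and the median absolute value was 0.25, so Pam and Scg3 changed by about as much as a typical listed gene. Changes of Pcsk1 and Slc30a8 were larger than that median.

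**Figure D2:**
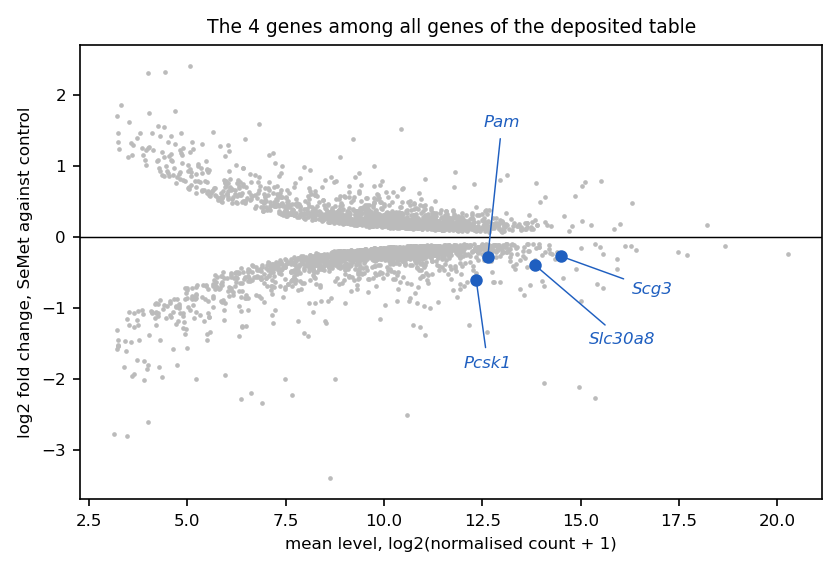
Log2 fold change (SeMet against Control) against mean level, log2(normalised count + 1), for all 3278 genes of the table (grey) and the 4 genes (blue). The table holds genes that the authors selected and none in a band around 0, and the 4 genes sit at high normalised counts with log2 fold changes from -0.61 to -0.27.

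Whether the 4 genes moved by the same amount was tested with ratios inside each library, which do not depend on how a library was scaled. The 6 pairs among the 4 genes and the ratio of each gene to Ins2, the more abundant proinsulin gene, made 10 two-sided exact permutation tests. With 4 libraries against 4 the smallest p is 0.0286, and 5 of the 10 tests reached it, all with groups that did not overlap. After Benjamini-Hochberg adjustment over the 10 tests none passed 0.05, and the lowest adjusted p was 0.0571, so the differences below are given as sizes with their spread.

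Relative to each of the other 3 genes Pcsk1 was lower in every SeMet library than in every Control library. The log2 ratio of Pcsk1 to Scg3 was -2.01 ± 0.10 in Controls and -2.35 ± 0.06 under SeMet, a change of -0.34 ± 0.06. The change of the ratio to Pam was -0.34 ± 0.09 and of that to Slc30a8 -0.22 ± 0.07. Each of these 3 had an exact permutation p of 0.0286 and an adjusted p of 0.0571. Scg3 and Pam had a log2 ratio of 1.85 ± 0.13 in Controls and 1.86 ± 0.06 under SeMet, a difference of 0.01 ± 0.07 (exact permutation p = 0.857). That p does not show that the ratio was equal. The log2 ratio to Slc30a8 was higher under SeMet by 0.12 ± 0.05 for Scg3 (exact permutation p = 0.0286, adjusted p = 0.0571) and by 0.11 ± 0.06 for Pam, whose groups overlapped (exact permutation p = 0.0571, adjusted p = 0.0816). Without Control 1 the difference for Scg3 was 0.08, and without Control 4 that for Pam was 0.06.

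Ins2, the main cargo gene, was itself lower under SeMet, with a log2 fold change of -0.23 ± 0.05. Per 1000 normalised counts of Ins2, Pcsk1 gave 4.86, 4.25, 5.02 and 4.23 in the 4 Controls and 3.10, 3.30, 3.79 and 3.98 in the 4 SeMet libraries. The SeMet libraries were all lower, though SeMet 4 came close to Control 4. The log2 ratio of Pcsk1 to Ins2 differed by -0.38 ± 0.11 (exact permutation p = 0.0286, adjusted p = 0.0571). For Slc30a8 the difference was -0.16 ± 0.06, and the groups overlapped (exact permutation p = 0.0571, adjusted p = 0.0816). Scg3 gave 18.4 ± 1.03 per 1000 counts of Ins2 in Controls and 18.0 ± 1.36 under SeMet, and Pam 5.12 ± 0.614 and 4.95 ± 0.236. Their log2 ratios to Ins2 differed by -0.04 ± 0.07 and -0.04 ± 0.10 (exact permutation p = 0.686 and 0.714), less than the spread between libraries, and both changed sign when 1 library was left out (SeMet 1 for Scg3, Control 1 for Pam, 0.01 each).

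The result against insulin depends on which cargo gene is the reference, since Ins1, Ins2 and Iapp differed in size or sign of change. Ins1 had a log2 fold change of -0.13 ± 0.05, and its call did not hold under the stricter adjustment (limma adjusted p = 0.271), with median-ratio scaling (0.113), or without SeMet library 2 or 3 (0.06 and 0.0615). Iapp, which encodes islet amyloid polypeptide, rose by 0.18 ± 0.05. With Iapp as the reference all 4 genes had lower ratios under SeMet, from -0.45 for Scg3 and Pam to -0.57 for Slc30a8 and -0.79 for Pcsk1 on the log2 scale (exact permutation, adjusted p = 0.0357). With Ins1, Pcsk1, Slc30a8 and Scg3 had lower ratios (exact permutation, adjusted p = 0.0408), Scg3 by only 0.14 on the log2 scale. Pam differed by -0.15, which did not pass (exact permutation, adjusted p = 0.127). These adjusted p depend on how many of the 10 tests in a set reached the smallest p, so the references are compared by size only.

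**Figure D3:**
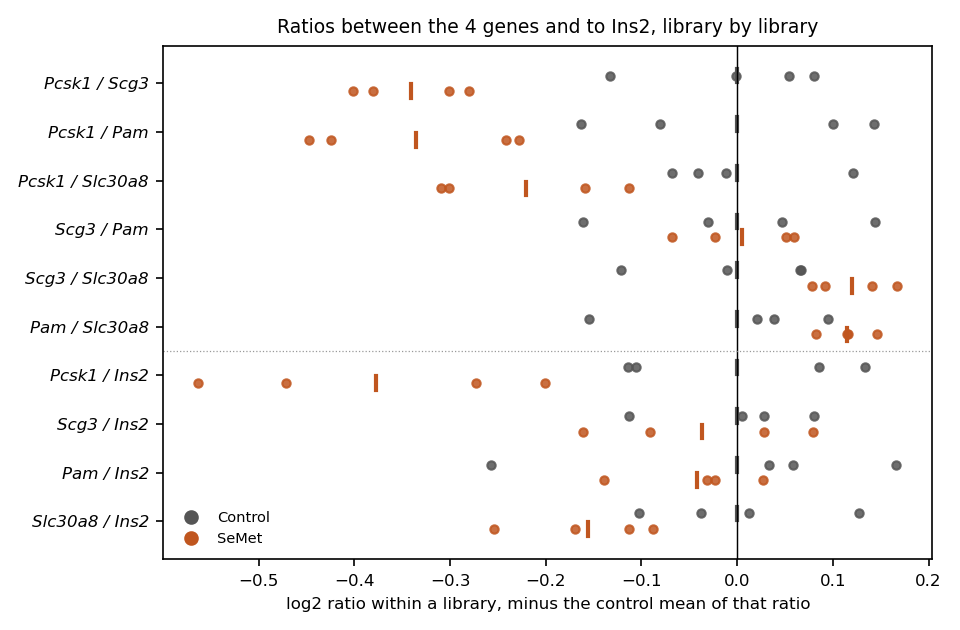
Log2 ratios inside each library for the 6 pairs of genes (above the dotted line) and for each gene to Ins2 (below it), each shifted so that its Control mean is 0. Points are libraries and short bars are group means. SeMet points of the 3 Pcsk1 ratios and of Pcsk1 to Ins2 lie left of all Control points, while those of Scg3 to Pam and of Scg3 and Pam to Ins2 overlap them.

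The other genes of the granule and of its enzymes did not move one way. Across 12 lists of pathway genes, 203 genes besides these 4, 67 were in the table, 36 higher and 31 lower, with a median log2 fold change of 0.14. The table holds no gene in a band around 0, so this median shows mainly which direction had more genes. The share of the 67 that was lower was 46.3%, against 53.0% of all listed genes. With the stricter adjustment 28 were higher and 27 lower. Genes outside the table, Pcsk2 among them, were not analysed here.

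The listed convertases and carboxypeptidases were divided. Of 13 such genes, Pcsk1 among them, 4 were listed, 2 higher and 2 lower, under both adjustments. Among all listed genes 47.0% were higher and 53.0% lower. Cpe, which trims the ends that Pcsk1 leaves, rose from 61374 ± 1187 to 69805 ± 4049 (log2 fold change 0.18 ± 0.04, limma adjusted p = 0.00068), so it moved opposite to Pcsk1. Furin, a convertase of the Golgi, fell from 3214 ± 167 to 2652 ± 51.3, and Pcsk4, known mainly from germ cells, rose from 257 ± 33.5 to 340 ± 31.6. Of 4 convertase helpers and inhibitors 1 was listed, Scg5, which encodes 7B2, the chaperone of the convertase that Pcsk2 encodes. It had a log2 fold change of -0.14 ± 0.04, which passed (limma adjusted p = 0.0033), but not under the stricter adjustment (limma adjusted p = 0.0552).

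Listed genes of copper supply moved both ways. Of 14 peptide-finishing enzymes and cofactor genes, 4 were listed, Pam among them. The copper exporter gene Atp7b fell from 409 ± 33.8 to 251 ± 9.77 (log2 fold change -0.70 ± 0.08). The copper importer gene Slc31a1 rose by 0.19 ± 0.05 and the copper chaperone gene Atox1 by 0.22 ± 0.06 on the log2 scale. All 4 passed under both adjustments, as did 71.4% of all listed genes under the stricter one.

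Of 16 granins and other cargo genes, Scg3 among them, 10 were listed, 3 higher and 7 lower (median -0.22). With the stricter adjustment 2 were higher and 6 lower. Over all listed genes 53.0% were lower, or 38.2% with that adjustment. Chga, encoding the chromogranin A that Scg3 binds, fell from 233288 ± 9629 to 195501 ± 3429. Its log2 fold change of -0.25 ± 0.04 lies close to that of Scg3. The peptide gene Ucn3 fell by 0.24 ± 0.04 and the secreted pentraxin gene Nptx2 by 0.73 ± 0.06 on the log2 scale.

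Among 22 genes of the granule membrane, which include Slc30a8, 12 were listed, 6 higher and 6 lower (5 and 6 with the stricter adjustment). For this list and the next, the shares over all listed genes were 47.0% higher and 53.0% lower, or 38.2% lower with that adjustment. Sytl4, encoding granuphilin, which docks granules, fell from 11968 ± 131 to 8781 ± 76.5 (log2 fold change -0.45 ± 0.03). Ica1l fell from 183 ± 30.2 to 112 ± 9.98, and exons of Fam117b on the other strand overlap 8.83% of it. Svop, encoding a transporter-like vesicle protein, rose by 0.41 ± 0.05 on the log2 scale. Of 35 genes of granule biogenesis and sorting, 6 were listed, 4 higher and 2 lower, or 3 and 1 with the stricter adjustment. The sorting receptor gene Sorl1 rose by 0.50 ± 0.06, Hid1, needed for granule formation, by 0.27 ± 0.04, and the adaptor subunit gene Ap3b1 by 0.19 ± 0.04 on the log2 scale. Eipr1, a partner of the granule biogenesis complex EARP, rose by 0.21 ± 0.07 over the listed genes. Vps52, of the Golgi tethering complex, fell by 0.18 ± 0.04, and Ap1s2 had a log2 fold change of -0.11 ± 0.03. The stricter adjustment ended the calls of Eipr1 and Ap1s2 (limma adjusted p = 0.095 and 0.0658).

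The granule is acidified by the vacuolar proton pump, and the convertases need the low pH. Of 27 genes of this pump, 3 were listed: Atp6v1a and the accessory subunit gene Atp6ap1 fell by 0.18 ± 0.03 and 0.19 ± 0.03 on the log2 scale, and Atp6v0e2 rose by 0.16 ± 0.04. All 3 passed under both adjustments, as did 71.4% of all listed genes under the stricter one.

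Zinc genes other than Slc30a8 moved both ways. Of 10 exporters of the Slc30 family 3 were listed and all 3 fell, Slc30a8 by the most. Among all listed genes 53.0% were lower, or 38.2% with the stricter adjustment, so these few do not show a fall of the family. Slc30a9 fell from 3468 ± 113 to 2910 ± 88.7 and Slc30a4 from 1583 ± 160 to 1348 ± 70.4. Of 14 importers of the Slc39 family 4 were listed, 2 higher and 2 lower. Slc39a8, which imports zinc and manganese, stood at 571, 533, 600.3 and 559 in the 4 Controls and at 1215, 1100.0, 1015 and 1222 in the 4 SeMet libraries. Every SeMet library was far above the Controls, and the gene rose 2.01-fold (95% interval 0.88 to 1.13 on the log2 scale, limma adjusted p = 8.2e-11). Slc39a6 rose by 0.15 ± 0.04, while Slc39a10 and Slc39a3 fell by 0.25 ± 0.05 and 0.20 ± 0.05 on the log2 scale. Among 5 genes of the metallothioneins and their regulator, 1 was listed, Mt3, with overlapping groups. It rose by 0.21 ± 0.07 on the log2 scale over the listed genes, a call lost under the stricter adjustment (limma adjusted p = 0.184). Without SeMet library 1 the value was 0.14.

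Of 26 genes that fold and translocate proinsulin in the endoplasmic reticulum, 15 were listed, 12 higher and 3 lower (median 0.16), or 8 and 3 with the stricter adjustment. Of all listed genes 47.0% were higher. The disulfide isomerase gene Pdia6 rose from 13391 ± 920 to 15874 ± 781 and the co-chaperone gene Dnajb11 from 2417 ± 98.6 to 2805 ± 127. The oxidase gene Ero1l fell from 2313 ± 220 to 1554 ± 72.6 and the exchange factor gene Sil1 by 0.24 ± 0.06 on the log2 scale. Of 22 transcription factors and RNA-binding proteins known to act on granule genes, 9 were listed, 3 higher and 6 lower (3 and 5 with the stricter adjustment). The share lower among all listed genes was 53.0%, or 38.2% with that adjustment. The poly(A)-binding protein gene Pabpc1 fell by 0.27 ± 0.04 and the beta cell factor gene Nkx6-1 by 0.20 ± 0.03, while Hnf4a rose by 0.27 ± 0.06 and the neuronal splicing factor gene Ptbp2 by 0.19 ± 0.05 on the log2 scale.

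**Figure D4:**
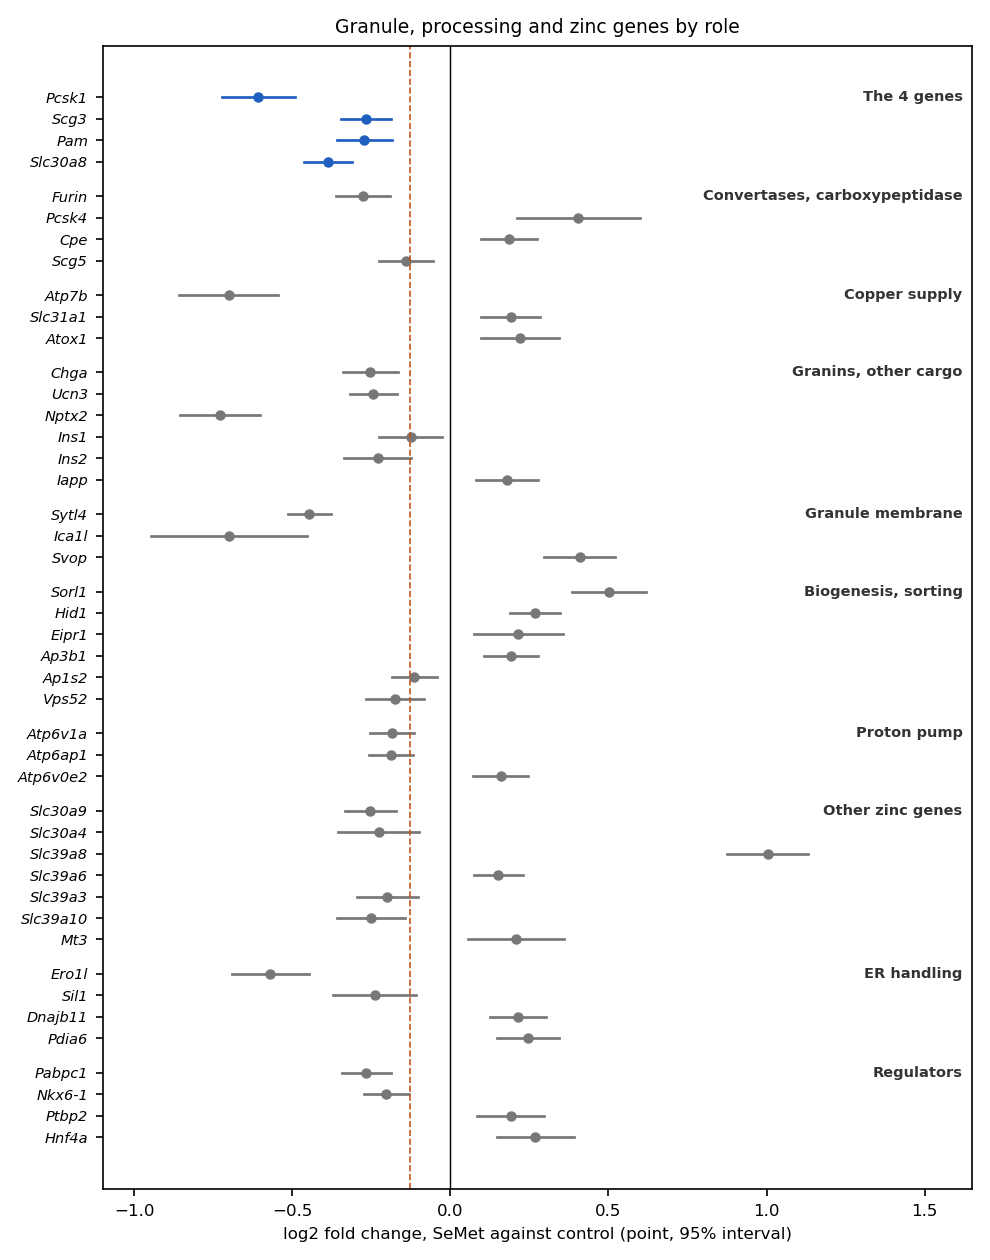
Log2 fold change (SeMet against Control) with its 95% interval from limma for the 4 genes (blue) and for other named genes of granules, processing and zinc (grey), grouped by role. The dashed line marks the median of all listed genes, -0.13. It sits near the band around 0 that holds no listed gene. The 4 genes lie left of it, as do most listed genes that fell, while Cpe, Iapp, Sorl1, Hid1 and Slc39a8 lie right of 0.

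The genes whose levels over the 8 libraries were most like those of each gene, among listed genes above the median level, were ranked by Pearson correlation of log2 values. This measure rests mainly on the difference between the groups. For Pcsk1 they were Vegfa (r = 0.992), the unnamed transcript Gm15681 (0.991) and Prlr, the prolactin receptor gene (0.990), which had log2 fold changes of -0.30, -0.60 and -0.64. For Slc30a8 they were Pcdh17 (0.990), Map3k15 (0.988) and Sytl4 (0.986). For Pam they were the transferrin receptor gene Tfrc (0.992), Abl1 (0.992) and Trim37 (0.991), and for Scg3 they were Tcf25 (0.990), Lyve1 (0.988) and Zcchc8 (0.982). At r of 0.95 or more, 67 genes matched Pcsk1, 47 matched Scg3, 112 matched Pam and 100 matched Slc30a8.

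Markers of the labelled cell type and of other types were looked up among the listed genes. The authors selected these genes, so a marker that is not listed may still be expressed. Being listed or not therefore cannot check the cell type. All 10 beta cell markers were listed, 3 higher and 7 lower, or 2 and 5 with the stricter adjustment. Over all listed genes 53.0% were lower, or 38.2% with that adjustment. The summed level of the beta cell markers was 2139270 to 2370600 in Controls and 1929920 to 2155640 under SeMet. Of 11 acinar markers none was listed. Of 8 alpha cell markers 4 were listed, 3 higher and 1 lower, against 47.0% higher and 53.0% lower of all listed genes. Gcg rose from 294 ± 37.0 to 647 ± 76.9, and Irx1 and Irx2 by 0.26 ± 0.06 and 0.30 ± 0.06 on the log2 scale, while Slc7a2 fell by 0.63 ± 0.04. Slc7a2 made up most of their summed level, which was 9250 to 9966 in Controls and 6787 to 7499 under SeMet. Of 6 delta and PP cell markers only Ppy was listed (82.8 to 140 against 164 to 235), of 6 duct markers Krt7 (9518 to 10350 against 10794 to 11740), and of 14 stromal, endothelial and immune markers Col1a1 (11.1 to 20.1 against 2.78 to 9.57). The part of these shifts in the falls of the 4 genes was not tested. In bulk RNA fewer cells of a type and less RNA per cell cannot be told apart.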

How the data were processed

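RNA was measured by sequencing in 8 libraries, 4 per group, grouped by their titles. Per the submitters' processing notes, the authors used STAR and featureCounts on mm10; for their versions and settings, the strandedness and the annotation the sources used here give nothing. The deposited signal is read as gene counts divided by 1 factor per library by the authors. This reading was not established: reads recovered from the values failed a unit check in most libraries, so no count test was run. The signal covers 3278 selected genes whose selection rule the sources used here do not state. Library depth is unknown; the listed values sum to 9083490 to 9858270 per library. No pair of libraries was identical.

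Log2(value + 1) was fitted with limma 3.58.1 (R 4.3.3, statmod 1.5.0), trended and robust, with treatment as the only term, and adjusted by Benjamini-Hochberg over the 3278 genes (threshold 0.05). Log2 fold changes are on that scale. Ratios were tested by exact permutation (SciPy 1.17.1). Symbols (3276 of 3278 matched), positions and exon lengths came from GENCODE M21 on GRCm38. The members and lists were chosen with earlier results of these data known. Named were the 4 genes, all listed members of lists with at most 6, the 4 with the largest change of longer ones, the insulin genes and Iapp, and the 3 genes nearest to each member. Alternatives were other pseudocounts, a filter on means, rescaling, another variance model, the stricter adjustment, a replicate block and leaving out each library.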

Additional observations from a re-analysis of the deposited data

Results flagged for a closer look

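Of 110 groups of 4 libraries (55 named genes), 9 held a library far from the other 3, and chance flags about 1 group in 20. None was a group of Pcsk1, Scg3, Pam or Slc30a8. Ins1 stood at 439529 in SeMet 1, against 386424 to 388782 in the others. Ucn3 was also highest in SeMet 1, at 15525 against 15047 to 15113. Cpe was lowest in Control 4, at 59607 against 61761 to 62092, and so was Atp6v1a, at 8534 against 8833 to 8877. Slc31a1 was highest in Control 1, at 1395 against 1296 to 1302. In SeMet 3 Svop was low, at 758 against 823 to 831, and Atp6ap1 was high, at 6627 against 6343 to 6387. Prlr was lowest in Control 2, at 2326 against 2794 to 2847. Chga was lowest in SeMet 4, at 190378 against 196847 to 197605.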

How the results depend on the processing

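The 4 genes kept their direction and passed in all 16 alternatives. Their log2 fold changes ranged from -0.65 to -0.56 for Pcsk1, -0.41 to -0.34 for Slc30a8, -0.32 to -0.22 for Pam and -0.29 to -0.22 for Scg3, and the largest limma adjusted p was 0.0018, for Pam with neither trend nor robust variance. Rescaling by the median ratio or by the sum without the insulin genes moved the median of all genes by 0.04 and 0.05 on the log2 scale. Of 3278 genes 2339 passed with the adjustment over all annotated genes, and 3260 to 3269 without 1 library. The replicate numbers did not pair the libraries (correlations of same-numbered deviations of 0.01, 0.15, 0.02 and -0.01); with a replicate block 3272 genes passed. Among 51 other genes named by the rule, 804 of 816 values kept their call and 12 lost it, none with a change of direction. These were 5 for Ins1, 3 for Ap1s2 (with a limma adjusted p of 0.0535 and 0.0811 under the rescalings), 1 each for Scg5, Eipr1 and Mt3, under the stricter adjustment, and 1 for Tcf25 (0.0531, scaled to the sum). Scaling to that sum moved the log2 fold change by over 1.5 times for Ins1 (-0.07), Scg5 (-0.09), Ap1s2 (-0.06) and Tcf25 (-0.07).

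Adjusted p of the ratio tests fell below 0.05 only with another reference gene. Each set of 10 tests was adjusted anew, and the adjusted p depends on how many tests reach the smallest p of 0.0286. Passing with another reference is therefore no stronger evidence for a ratio than the same exact permutation p with Ins2. With Ins1 in place of Ins2 the log2 ratio changes were -0.48 for Pcsk1, -0.14 for Scg3, -0.26 for Slc30a8 and, not passing, -0.15 for Pam (adjusted p = 0.127). With Iapp they were -0.79 for Pcsk1, -0.45 for Scg3, -0.45 for Pam and -0.57 for Slc30a8. Ins1 fell less than Ins2 and Iapp rose. Without 1 library the change to Ins2 ran from -0.44 to -0.32 for Pcsk1, -0.19 to -0.11 for Slc30a8, -0.07 to 0.01 for Scg3 and -0.13 to 0.01 for Pam. Of the 6 pair ratios, Scg3 to Pam changed sign (-0.05 to 0.05), Pam to Slc30a8 went from 0.11 to 0.06 without Control 4 and Scg3 to Slc30a8 from 0.12 to 0.08 without Control 1. The 3 ratios of Pcsk1 kept their sign and moved by less than 1.5 times. With 3 against 4 libraries the smallest p is 0.0571, so these have no test.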
